A study of Mus musculus with 39 samples.

Results

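Testes of INSL3-KO mice were compared with testes of wild-type (WT) mice at postnatal day 23 (P23) by RNA sequencing of the whole organ. The comparison held 6 of the 39 samples of the series, 3 INSL3-KO and 3 WT libraries, which make up 2 of its 13 groups, and its members were the 43339 Ensembl genes counted in these libraries. Of these genes, 20657 held enough reads to be tested and 22682 did not. All 6 libraries came from males on a C57BL/6J background, and the submitters recorded no drug and no surgery. The INSL3-KO males carried a knockout of Insl3, and the WT males carried none; how the allele was made, and how many animals gave each library, are not given in the sources used here. The replicates were labelled as biological, and the p-values below measure the spread between these libraries. In the rest of the series the other groups were gubernacula and testes of WT, INSL3-KO and knock-in mice at P8, P23 and P40, of which the 3 testis libraries labelled P8 INSL3-KO were used here for levels at an earlier age.

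INSL3 is a peptide hormone of the insulin and relaxin family that Leydig cells secrete. It acts through its receptor RXFP2 on the gubernaculum, the ligament that draws the fetal testis towards the scrotum, and mice without it keep their testes in the abdomen, where the temperature is higher than in the scrotum. In a young mouse testis the first wave of germ cells passes from spermatogonia through meiosis to round and then elongating spermatids, while Sertoli cells nurse the germ cells inside the tubules, peritubular myoid cells surround the tubules, and Leydig cells, macrophages, fibroblasts and vessels fill the space between them. Because the whole organ was sequenced, a transcript that takes a smaller share of the reads can reflect fewer cells of a type or less RNA per cell, and these cannot be told apart here.

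Insl3 itself was at or near 0 in the KO libraries. Insl3 (ENSMUSG00000079019, GRCm38 chr8:71689214-71690575, plus strand) had 0, 5 and 0 counts in the 3 KO libraries against 20844, 25238 and 23851 in the WT libraries. As CPM, the count of a gene relative to the TMM-scaled library total, this was 0, 0.0979 and 0 against 657, 804 and 766, and the log2 fold change of KO over WT was -14.26 (SE 0.24, edgeR adjusted p = 4.2e-11). The groups were far apart, and the genotype labels of the P23 libraries held. Without KO replicate 2, whose 5 counts were the sole KO reads, the log2 fold change was -17.76, a size that no KO read fixes. Jak3, a kinase gene that ends at the same base as Insl3 and spans it on the same strand, read 4.41 ± 0.465 CPM in KO against 17.4 ± 3.98 in WT (mean ± SD, n = 3 each here and below). Its log2 fold change of -1.98 (SE 0.18) is uncertain, since reads of Insl3 can be counted for Jak3. Rxfp2, the INSL3 receptor, read 0.0679, 0.215 and 0.163 CPM in KO against 17.6, 19 and 17.7 in WT, a log2 fold change of -6.87 (SE 0.24). Insl6, a relaxin-family gene of the testis, read 1.27, 3.02 and 2.26 CPM against 112, 119 and 125 (-5.75, SE 0.21). In the 3 libraries labelled P8 INSL3-KO, Insl3 had 906, 804 and 613 counts, 15.7 ± 2.38 CPM on a scale shared by the 9 libraries, where the P23 KO libraries read 0.0372 ± 0.0644 and the P23 WT libraries 837 ± 85.1. This goes against their genotype label, so they are called the libraries labelled P8 INSL3-KO throughout, and every level taken from them is a description without a test.

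Library totals ranged from 36689418 to 41885132 counts in KO and from 38548819 to 39470969 in WT. A gene was called lower or higher in KO at an edgeR adjusted p below 0.01 with at least a 2-fold change. By this rule 7671 of the 20657 genes tested were lower in KO (37.1%) and 5948 were higher (28.8%), 65.9% in all, and the 2 groups of libraries did not overlap for 18383 genes (89.0%). The falls were much deeper than the rises. Among the genes called lower, 4089 were at least 16-fold lower and 1822 at least 256-fold lower, and 1887 had no more than the floor of 3 counts in each KO library. Among the genes called higher, 2769 were at least 4-fold higher and 140 at least 16-fold higher. The genes called lower took 67.2 to 67.7% of the WT counts and 11.5 to 11.6% of the KO counts, and the genes called higher took 10.2 to 10.6% of the WT counts and 55.8 to 56.3% of the KO counts.

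The scale on which the libraries are set side by side moved the results. The median log2 fold change over all genes tested was -0.13 after TMM scaling, 0.43 when each library was scaled to its total, and -2.22 when the libraries were scaled on the summed counts of a list of 40 Sertoli cell genes. Of the calls, 56.3% were lower under TMM, 45.2% with library totals, 61.2% with DESeq2 size factors and 97.8% under Sertoli scaling. Each of the 7671 genes called lower under TMM was also called lower under Sertoli scaling, and 6600 of them were called lower with library totals as well. Under Sertoli scaling 68.0% of the genes tested were called lower and 1.50% higher. Of the 5948 genes called higher under TMM, 310 were called higher and 244 lower under Sertoli scaling. For this reason the median of each somatic list below is given under TMM and relative to the Sertoli genes. Because counts were summed, that scale rests most on the most abundant member of the list, Clu. The distribution of all genes on the 3 scales shows a long lower tail on each of them, while the main body of genes moves from above 0 to below it.

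**Figure D1:**
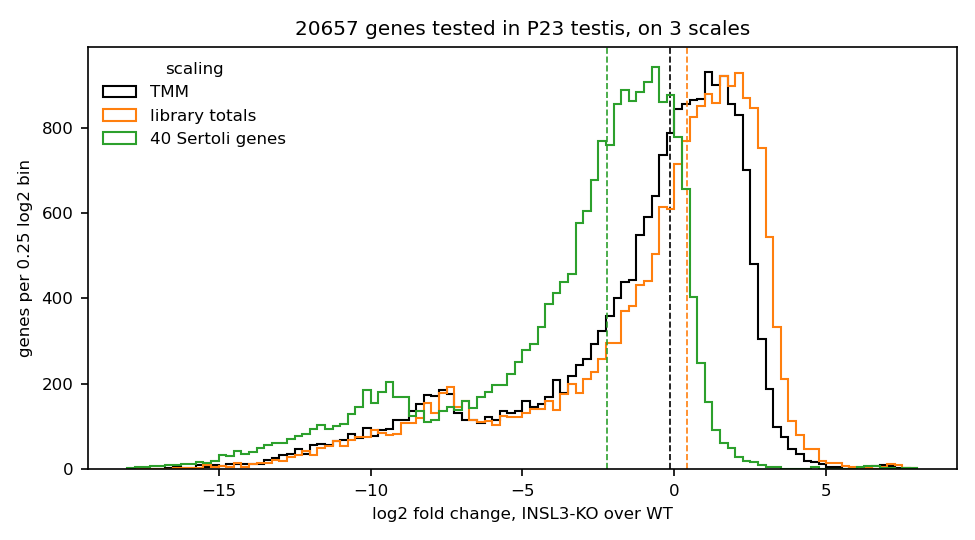
Number of genes (vertical axis) by log2 fold change of KO over WT (horizontal axis) for the 20657 genes tested, drawn as 3 outlines for TMM scaling, library totals and scaling on the 40 Sertoli genes, with a dashed line at each median (-0.13, 0.43 and -2.22). The body of the distribution shifts with the scale and the long lower tail stays on the lower side of 0 in each.

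Germ cell genes fell more deeply the later the stage they mark. In lists of marker genes, the median log2 fold change was 1.70 for undifferentiated spermatogonia, 0.20 for differentiating spermatogonia and meiotic entry, -2.76 for early meiotic prophase, -5.74 for pachytene and late spermatocytes, -8.47 for round spermatids and -11.97 for elongating spermatids. Relative to the Sertoli genes the 6 medians were -0.39, -1.88, -4.85, -7.82, -10.56 and -14.03, so the first 2 changed sign between the scales and the other 4 did not. The per-library plot of landmark genes shows the KO libraries close together for genes well above 0 in KO, such as Sycp3, Sox9 and Star. For genes near 0 in KO, such as Acrv1, Spo11 and Prm1, they lay further apart.

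**Figure D2:**
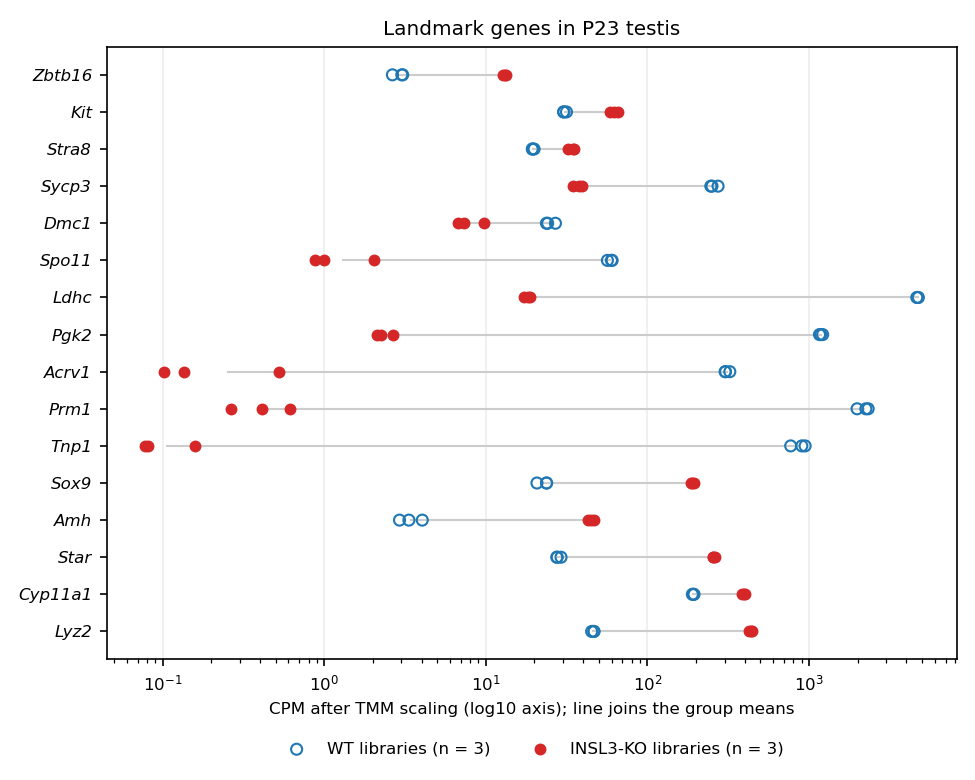
CPM of 16 landmark genes in each of the 6 libraries on a log10 axis, with WT libraries as open circles and KO libraries as filled circles, ordered from spermatogonial genes at the top to spermatid genes, then Sertoli, Leydig and macrophage genes. KO lies left of WT from Sycp3 (log2 fold change -2.78) to Tnp1 (-12.99), and right of WT for Sox9, Amh, Star, Cyp11a1 and Lyz2.

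Spermatogonial genes did not move together. Of 18 genes of undifferentiated spermatogonia 3 were called lower (16.7%, against 37.1% of all genes tested) and 10 higher (55.6% against 28.8%). The summed level of the list was 291 to 296 CPM in KO against 151 to 156 in WT. Zbtb16, a repressor needed to maintain the stem cell pool, read 13.3, 12.8 and 13.1 CPM in KO against 3.06, 2.64 and 3.02 in WT, a log2 fold change of 2.17 (SE 0.12), and 0.08 relative to the Sertoli genes. Ret, the signalling part of the GDNF receptor, read 6.92 ± 0.451 CPM against 0.734 ± 0.254 (3.23, and 1.16 relative to the Sertoli genes). Gfra1, the ligand-binding part of the same receptor, went the other way at 8.15, 7.01 and 6.74 CPM in KO against 14.6, 16.1 and 14.1 in WT (-1.03, SE 0.12), or -0.47 with library totals, where it was not called, and it fell short of 2-fold without KO replicate 2, KO replicate 3 or WT replicate 2 (-0.999, -0.981 and -0.961). Id4, a marker of stem cells, read 20.9, 21.6 and 23 against 47.2, 48.6 and 48.1 (-1.13), or -0.57 and not called with library totals. The GDNF receptor parts thus stood on opposite sides of 0 under TMM.

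Among 18 genes of differentiating spermatogonia and meiotic entry, 5 were lower (27.8%, against 37.1% of all genes tested) and 7 higher (38.9% against 28.8%). Kit, the stem cell factor receptor of differentiating spermatogonia, read 62.1, 58.9 and 66.1 CPM in KO against 31.6, 30.3 and 30.4 in WT, a log2 fold change of 1.02 under TMM and -1.07 on the Sertoli scale. It did not reach 2-fold without KO replicate 3 (0.97) or with DESeq2 (0.81). Stra8, which retinoic acid induces at entry into meiosis, read 34.7, 32.3 and 34.9 CPM against 19.4, 19.9 and 19.5, a log2 fold change of 0.79 that did not reach 2-fold, although with library totals it was 1.36 and called higher. Rec8, a meiotic cohesin, was lower (34.7 ± 1.16 against 75.6 ± 4.85 CPM, -1.12, or -0.56 and not called with library totals), and Dmrtb1, which controls the switch from mitosis to meiosis, was at 19.1, 20.2 and 20.7 CPM in KO against 866, 908 and 889 in WT (-5.47, SE 0.05). The largest change of this list was therefore in Dmrtb1, on either scale.

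In early meiotic prophase, when chromosomes pair and recombine, 32 of 39 genes were called lower and none higher, and the summed level was 426 to 462 CPM in KO against 3507 to 3684 in WT. Sycp3, a part of the synaptonemal complex, read 34.7, 37.8 and 39.6 CPM against 274, 247 and 251, a log2 fold change of -2.78 (SE 0.07). Sycp1 (46.1 ± 1.59 against 313 ± 25.3) and Hormad1 (26.5, 22.9 and 25.4 against 190, 170 and 178), which joins unsynapsed chromosome axes, fell by similar amounts, -2.76 and -2.85. Spo11, the enzyme that makes meiotic DNA breaks, fell furthest in the list, to 0.883, 2.04 and 0.998 CPM from 59.9, 60.5 and 56.6 (-5.48, SE 0.23), whereas Dmc1, the recombinase that repairs them, fell to 9.75, 7.34 and 6.7 from 27, 23.7 and 24.1 (-1.65, SE 0.15). Mei4 and Rec114, which were picked here after their values were seen and act with Spo11 at the breaks, were not called: Mei4 read 2.49 ± 0.761 CPM in KO against 1.13 ± 0.316 and Rec114 3.6 ± 0.265 against 1.93 ± 0.424. Each passed the call on leaving out a library, Mei4 without KO replicate 1 (1.39) and Rec114 without WT replicate 2 (1.07), and both lay below 0 on the Sertoli scale (-0.94 and -1.18).

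Pachytene and late spermatocyte genes fell more deeply. Of 36 genes 33 were lower and none was higher, and their summed level was 659 to 689 CPM in KO against 23554 to 24244 in WT. Piwil1, the PIWI protein of pachytene piRNAs, read 3.19, 3.27 and 2.5 CPM against 476, 496 and 483 (-7.34, SE 0.09). Ccna1, the cyclin needed to enter the first meiotic division, read 1.06, 0.705 and 1.06 against 194, 197 and 195 (-7.70). Ldhc, the lactate dehydrogenase of germ cells, read 18.8, 17.4 and 18.2 against 4749, 4700 and 4644 (-8.02), and Pgk2, a retroposed phosphoglycerate kinase, 2.13, 2.68 and 2.26 against 1215, 1161 and 1181 (-8.97). Mybl1, the transcription factor that switches on many pachytene genes, fell less, to 32, 33.7 and 34.2 CPM from 97.1, 87.4 and 92.2 (-1.47, SE 0.06), or -0.90 and not called with library totals. Cul4a (-0.16) and Taf7l (0.29), named here after their values were seen, were not called, and both lay below 0 on the Sertoli scale.

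Spermatid genes fell furthest. Of 44 round spermatid genes 43 were lower and none higher, 7 of them at or under the floor in KO, with a median of -8.27 when those 7 were set at their bound. Acrv1, a protein of the acrosome, read 0.136, 0.529 and 0.102 CPM in KO against 324, 304 and 303 in WT (-10.19), and Crem, the activator of spermatid transcription, read 14.4, 12.9 and 13.4 against 311, 304 and 305 (-4.50, SE 0.06). Of 32 elongating spermatid genes 31 were lower and none higher. Prm1 and Prm2, the protamines that replace histones in sperm chromatin, read 0.611, 0.411 and 0.265 CPM against 1984, 2323 and 2248 (-12.32) and 0.317, 0.607 and 0.448 against 2302, 3175 and 3129 (-12.59). Tnp1, a transition protein of the same exchange, had 0.158, 0.0783 and 0.0814 CPM against 770, 946 and 902 (-12.99), and Odf1, of the outer dense fibres of the tail, 0.86, 1.29 and 1.12 against 2118, 2062 and 2031 (-10.87). The elongating spermatid list took 2.96% of the WT counts and 0.0209% of the KO counts. Gopc and Gsk3a, picked after their values were seen, were the members of the 2 spermatid lists that did not pass the 2-fold mark, at -0.57 and -0.56.

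The genes of the flagellum were low as a group in KO. The axoneme is the ring of microtubules and dynein motors inside the sperm tail, and of 91 genes for it and its assembly 87 were lower in KO and none was higher, with a median log2 fold change of -6.58, or -8.66 relative to the Sertoli genes. Among the motors, Dnah1 read 2.08, 1.61 and 1.87 CPM in KO against 184, 177 and 170 in WT (-6.58, SE 0.09), Dnah8 7.65, 4.78 and 5.23 against 958, 916 and 922 (-7.32), and Dnah17 1.99, 1.7 and 1.85 against 328, 334 and 338 (-7.50). Hydin, a protein of the central pair of microtubules, read 0.837, 0.842 and 0.814 CPM against 185, 169 and 175 (-7.72), and the radial spoke gene Rsph1 32.3, 29.9 and 31 against 904, 1182 and 1174 (-5.13). Dnah9, Dnah11, Dnal1 and Ift20, named after their values were seen, were not called, though Dnah11 was called lower without KO replicate 2 (-2.39). The transcription factors of ciliary genes in the list fell with them: Rfx2 read 6.13, 5.42 and 5.21 CPM against 523, 545 and 519 (-6.57, SE 0.07), Foxj1 0.294, 0.607 and 0.468 against 39.6, 41.2 and 41.2 (-6.45), and Rfx3 9.42 ± 0.737 against 54.2 ± 0.183 (-2.53).

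RFX proteins bind a motif called the X-box, and the sequence before the start of each flagellar gene was searched for it. An X-box consensus of 14 positions, 8 of them fixed, was searched on both strands in the 250 bases before the RefSeq start of 13375 tested genes. The motif was present in 12 of the 72 axoneme genes that had a window (16.7%), in 3.33% of the windows of genes called lower, in 1.07% of those called higher and in 2.27% of all windows. It was found in 0 of 25 windows of elongating spermatid genes and in 1 of 38 of round spermatid genes. Other lists also held it above the share of all windows, with 2 of 25 Sertoli (8%), 3 of 35 chaperone (8.57%) and 2 of 30 apoptosis windows (6.67%). Barrier junction genes had it in 1 of 20 windows and hormone genes in 1 of 17, and the remaining lists in none. A match is only a match of letters. The 12 genes were Cfap206, Cfap44, Cfap45, Dnaaf2, Dnah17, Hydin, Ift57, Iqca, Lrguk, Spag16, Tekt4 and Ttc29, and each was called lower, from -2.31 for Dnaaf2 to -8.82 for Tekt4. The sites of 6 of them are printed to show how the letters between the fixed bases vary, 5′ to 3′ on the strand of the gene, with the X-box in capitals and up to 20 flanking bases on each side.
Cfap206: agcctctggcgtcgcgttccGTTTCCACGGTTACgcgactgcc
Dnah17: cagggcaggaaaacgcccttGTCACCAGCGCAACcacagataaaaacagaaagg
Iqca: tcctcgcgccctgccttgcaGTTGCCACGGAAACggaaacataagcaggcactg
Lrguk: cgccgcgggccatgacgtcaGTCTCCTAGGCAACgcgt
Spag16: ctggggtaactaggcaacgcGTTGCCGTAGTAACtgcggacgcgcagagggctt
Tekt4: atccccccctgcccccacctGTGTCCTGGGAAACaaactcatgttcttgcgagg
In Cfap206 the opposite strand holds the motif as searched, in Iqca both strands do, and in the other printed sites the printed strand does.

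The printed stretches lie in GRCm38 at chr4:34730207-34730249 (minus strand, Cfap206), chr11:118129345-118129398 (minus strand, Dnah17), chr1:90153503-90153556 (minus strand, Iqca), chr6:34029410-34029447 (plus strand, Lrguk), chr1:69826847-69826900 (plus strand, Spag16) and chr17:25471410-25471463 (plus strand, Tekt4). None of these 6 overlaps an annotated exon of GENCODE M21, while those of the other 6 genes do and are not printed, and the first base of the motif lies 23, 159, 100, 18, 103 and 160 bases before the RefSeq start in the same order. The Dnah17 stretch lies in an intron of the annotated gene, which begins further upstream. Iqca had 2 matches, which are the same printed site read on each strand. The genes with these sites were high in WT and near 0 in KO. Cfap206, a protein of the axoneme, read 4.25, 3.41 and 4.11 CPM in KO against 1080, 1027 and 1045 in WT (-8.07, SE 0.08). Tekt4, a tektin filament of the tail, read 0.543, 0.783 and 0.753 against 292, 338 and 323 (-8.82, SE 0.11), and Spag16, of the central pair, 0.724 ± 0.286 against 170 ± 3.91 (-7.86). Iqca (0.101 ± 0.121 against 29.2 ± 1.58 CPM) and Lrguk (0.872 ± 0.315 against 62.6 ± 2.23) had log2 fold changes of -8.10 and -6.15.

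In all, 7 motifs were searched, on both strands, and a match or its absence says nothing of whether a factor binds. The cyclic AMP response element TGACGTCA, to which CREM binds, was found in 2.71% of the windows of genes called lower, 1.90% of those called higher and 2.47% of all, and in 2 of 38 round spermatid windows and 0 of 25 elongating ones. A heat shock element, 13 positions with 9 fixed, was found in 0.426%, 0.268% and 0.351% of the same 3 sets, and in 1 of 35 windows of chaperone genes, that of Hspe1. The GC box GGGCGG was found in 41.5% of the windows of genes called lower, 57.8% of those called higher and 52.1% of all. The windows of the cholesterol list held the CCAAT box in 15 of 16 cases against 35.9% of all windows. The letters CAACTG, a site of MYB factors such as Mybl1, were found in 5 of 26 windows of pachytene genes, 11.6% of those of genes called lower, 8.61% of those called higher and 9.54% of all. They were also in 13 of 72 axoneme windows and 5 of 24 of sperm metabolism genes, but in 3 of 38 round spermatid and 0 of 25 elongating spermatid windows. Lists of other cells also held them above the share of all windows. Among these were 4 of 6 erythroid, 2 of 4 kidney, 3 of 8 lymphocyte and mast cell, 2 of 7 skeletal muscle and 3 of 13 myoid windows, against 1 of 25 Sertoli windows. The letters TCAAGGTCA, a site of the steroidogenic factor SF1, were found in 0 of 20 windows of Leydig genes and 0.284% of all.

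Acrosome and fertilisation genes followed the spermatid pattern, with 54 of 55 lower in KO, none higher, and a median of -8.52, or -7.98 with the 15 genes at or under the floor set at their bound. Acr, the protease acrosin, read 0.634, 1.21 and 0.774 CPM against 355, 353 and 357 (-8.64, SE 0.13). Izumo1, the sperm protein that binds the egg, read 0.226, 0.627 and 0.367 against 100, 107 and 97.3 (-7.92), and Plcz1, the phospholipase that activates the egg, 0, 0.333 and 0.204 against 334, 324 and 318 (-10.74). Catsper1, a pore unit of the sperm calcium channel, had no read in the KO libraries against 177, 166 and 169 CPM in WT, at least 2733-fold lower when 3 counts per library are taken as the floor. Sperm metabolism genes fell in 27 of 32 cases. Gapdhs, the glycolytic enzyme of the tail, read 0.695 ± 0.109 CPM against 2343 ± 54.1 (-11.72), and 2 genes were called higher, the monocarboxylate transporter Slc16a1 (1.59, and -0.50 relative to the Sertoli genes) and the creatine kinase Ckb (1.91 and -0.18).

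Genes of the piRNA pathway, which silences transposons in germ cells, were lower in 26 of 30 cases and higher in 1. Piwil2, active from spermatogonia on, fell less than Piwil1, to 62.8, 65.3 and 71.1 CPM from 225, 208 and 207 (-1.68, SE 0.06), and so did Tdrd1 (-1.65). Ddx4, a helicase of the germ granule, fell to 63.5, 64.9 and 66.3 from 739, 680 and 711 (-3.45). Piwil4, the PIWI protein of fetal and spermatogonial cells, was the member called higher, at 4.57, 5.25 and 5.8 CPM against 0.252, 0.509 and 0.578 (3.54, and 1.46 relative to the Sertoli genes). In the list of germ cell transcription and translation factors 33 of 48 were lower and 4 higher. Sox30, a regulator of spermatid genes, read 4.7 ± 0.879 CPM against 372 ± 2.76 (-6.30), Brdt, a chromatin reader, 14.5 ± 1.98 against 374 ± 13.5 (-4.69), and Papolb, a poly(A) polymerase of spermatids, 4.03 ± 0.491 against 1002 ± 35.8 (-7.96). Among gene families, 360 of 375 RIKEN clones of adult testis, 6 of 6 Tssk, 29 of 29 Cfap and 10 of 10 Catsper genes were lower. Other families were mixed, with 22 of 31 Adam genes lower and 7 higher, 20 of 27 Prss genes lower and 5 higher, and 3 of 16 Rhox genes lower and 5 higher. The Rhox shares were 18.75% lower and 31.25% higher, beside 37.1% and 28.8% of all genes tested.

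Sertoli cell genes were higher in KO as a share of the RNA, and their levels relative to one another changed. Of 40 genes 36 were higher and 2 lower, the median log2 fold change was 2.37, and the summed level was 15686 to 15860 CPM in KO against 3644 to 3760 in WT. Scaled on their own sum, 6 were higher, 4 were lower and the median was 0.28. Clu, the clusterin gene and the most abundant of the list, read 6913, 6654 and 6841 CPM in KO against 1483, 1512 and 1514 (2.18, and 0.09 on the Sertoli scale). It makes up a large part of the sum that sets this scale, so its value near 0 there is largely by construction. Wt1, a transcription factor of Sertoli cells, read 255, 249 and 247 against 61.5, 61.6 and 57.1 (2.06 and -0.03). Among the genes above the list median on both scales were Sox9, which specifies the Sertoli cell, at 186, 188 and 194 CPM against 23.7, 20.7 and 23.8 (3.06 and 0.97), and Amh, the anti-Müllerian hormone that Sertoli cells lose as they mature, at 44.6, 46.7 and 42.7 against 3.34, 4.04 and 2.92 (3.70 and 1.62). Fshr, the receptor for FSH, read 39.9, 42.6 and 43.7 CPM against 3.72, 4.39 and 2.96 (3.51 and 1.43), and Trf, the iron carrier transferrin, 390, 377 and 383 against 21.4, 21.3 and 17.5 (4.26 and 2.17). The deepest fall in the list was that of Pdzk1, a scaffold protein, which read 0.272, 0 and 0 CPM in KO against 246, 269 and 275 in WT (-11.57).

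Genes that Sertoli cells express under androgen were higher in 7 of 9 cases and lower in 1, with a median of 2.004 under TMM and -0.08 on the Sertoli scale. Rhox5, a homeobox gene and a classical androgen target, read 81.5, 81.2 and 75 CPM in KO against 8.99, 12.2 and 15.2 in WT (2.71, and 0.63 relative to the Sertoli genes). Eppin, a protease inhibitor, read 115 ± 2.82 against 40.4 ± 1.82 (1.50 and -0.58). Of 25 hormone receptors and hormones 21 were higher (2.01 and -0.08), and the 3 lower were Insl3, Rxfp2 and Insl6. Of the 32 genes of the blood-testis barrier 6 were lower (18.75%, against 37.1% of all genes tested) and 18 higher (56.25% against 28.8%). On the Sertoli scale 14 were lower and 0 higher, where 68.0% of all genes tested were lower and 1.50% higher. The claudins parted: Cldn11, the main claudin of the barrier, read 620, 644 and 629 CPM against 95.8, 92.2 and 87.1 (2.78 and 0.70), while Cldn3 read 25.1, 26.1 and 21.8 against 55.8, 71.2 and 71.7 (-1.45 and -3.53), or -0.88 and not called with library totals. Nectin3, through which spermatids attach to Sertoli cells, read 16.5, 15.7 and 18 against 694, 637 and 654 (-5.30).

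Leydig cell genes were higher in 24 of 31 cases and lower in 4, of which the knocked-out Insl3 is 1. Their median of 1.74 became -0.35 relative to the Sertoli genes. On that scale 2 were higher and 9 lower, against 1.50% and 68.0% of all genes tested. Among the steps from cholesterol to testosterone, the first rose most. Star, which brings cholesterol into the mitochondrion, read 263, 256 and 256 CPM in KO against 29.2, 27.7 and 27.5 in WT (3.20, SE 0.05, and 1.11 on the Sertoli scale), and Lhcgr, the LH receptor that drives the pathway, 103, 103 and 102 against 10.6, 8.25 and 7.81 (3.53 and 1.45). Cyp11a1, which cuts the side chain of cholesterol, read 394, 403 and 383 CPM against 192, 194 and 190, higher by 1.03 under TMM, 0.83 and not called with DESeq2, and lower on the Sertoli scale (-1.05). Hsd3b6, an enzyme of adult Leydig cells, read 310, 299 and 303 against 80.8, 83 and 76.4 (1.92 and -0.16). Cyp17a1 read 341, 337 and 321 CPM against 229, 214 and 214 (0.60, not called, and -1.48, but 1.17 and called with library totals), and Hsd17b3, the last enzyme, 16, 14.8 and 13.3 against 25.7, 23.8 and 23.7 (-0.73, not called, and lower on the Sertoli scale).

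Of 26 genes of cholesterol synthesis and uptake 14 were higher and 3 lower, with a median of 1.48, or -0.60 on the Sertoli scale. The steps did not move together. Msmo1, a sterol demethylase, read 192, 201 and 187 CPM against 24.3, 26.5 and 26.3 (2.91 and 0.83), while Fdft1, squalene synthase, fell to 69.8, 71.2 and 63.5 from 655, 649 and 662 (-3.26). Hmgcs1, at the start of the pathway, was higher under TMM (1.51) and lower on the Sertoli scale (-0.57).

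Peritubular myoid, fibroblast and macrophage genes also took a larger share. Myoid genes were higher in 13 of 16 cases and lower in 2 (median 1.82, Sertoli scale -0.27): Acta2, smooth muscle actin, read 384, 390 and 362 CPM against 89.5, 85 and 86.2 (2.12 and 0.04), whereas Actg2, another smooth muscle actin, read 16.1, 13.3 and 13.5 against 340, 351 and 333 (-4.58). Fibroblast and matrix genes were higher in 25 of 30 and lower in 1 (2.01 and -0.07). Dcn, the matrix protein decorin, read 884, 880 and 894 CPM against 97, 85.6 and 85 (3.31 and 1.23), Pdgfra 242, 223 and 240 against 25.7, 24.8 and 22.3 (3.28 and 1.19), and Col1a1, a chain of collagen I, 175 ± 3.63 against 56.8 ± 1.97 (1.63 and -0.46).

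Macrophage genes had the largest median of the somatic lists, with 23 of 25 higher and 1 lower, 2.54 under TMM and 0.46 on the Sertoli scale. On that scale 5 were higher and 3 lower, against 1.50% and 68.0% of all genes tested. Their summed level was 1626 to 1697 CPM in KO against 576 to 630 in WT. Lyz2, lysozyme, read 436, 443 and 428 CPM against 46.7, 46.6 and 45.2 (3.24 and 1.15), C1qa, a complement part that macrophages make, 86.1, 96.4 and 87.8 against 9.24, 10.6 and 11.7 (3.10 and 1.02), and Csf1r, the receptor for CSF1, 121, 122 and 115 against 21.4, 21.7 and 20.5 (2.49 and 0.41). The member called lower was Aif1, at 4.64, 7.27 and 4.52 against 280, 332 and 338 (-5.85). Lymphocyte and mast cell genes were higher in 3 of 12 (25%, near the 28.8% of all genes tested) and lower in 1 (8.33% against 37.1%). Their medians were 0.85 and -1.23. Cd3e, a T cell receptor part, read 1.58, 0.529 and 1.2 CPM against 2.43, 1.34 and 1.51, which overlapped. Endothelial genes were higher in 8 of 16 (50%) and lower in 1 (6.25%), with medians of 0.84 and -1.24. Erythroid genes were higher in 1 of 8 and lower in 1 (12.5% each), with medians of 0.55 and -1.53. The changes of each list on the 2 scales are drawn together.

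**Figure D3:**
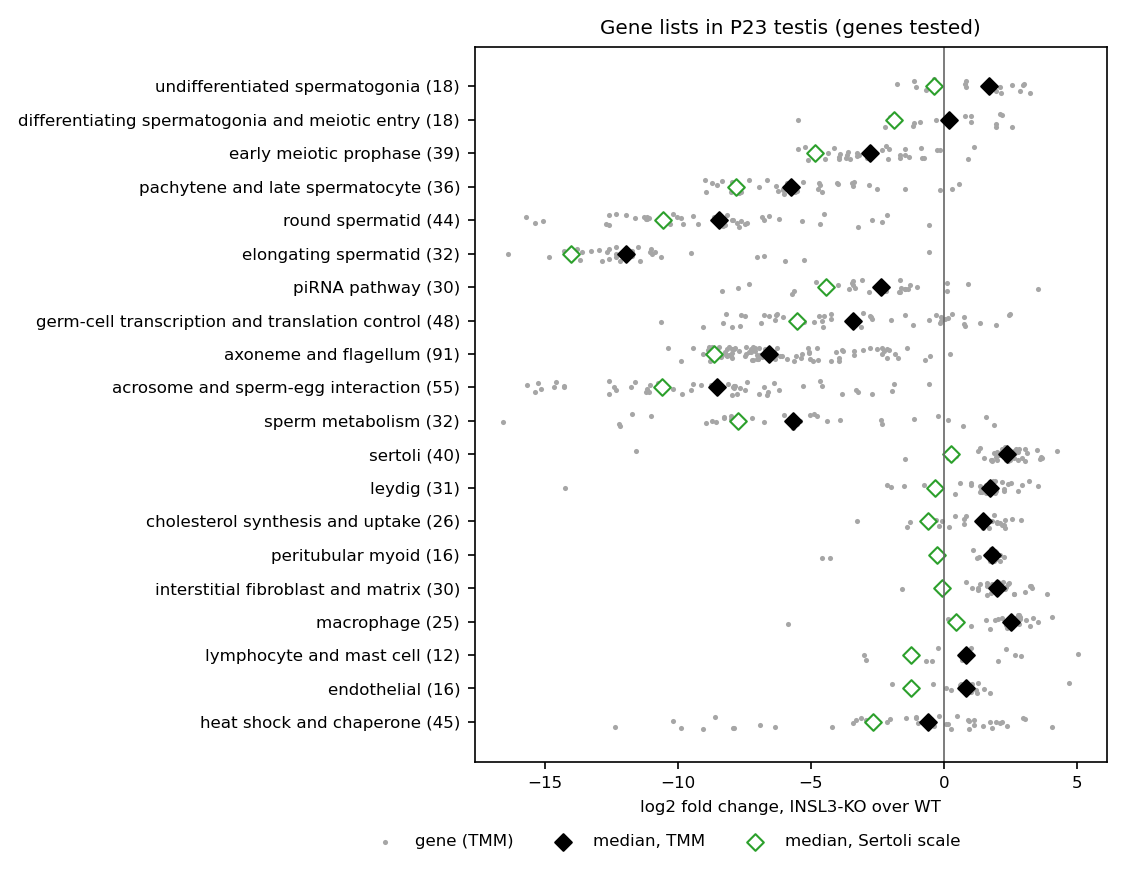
Log2 fold change of KO over WT (horizontal axis) for the tested members of 20 gene lists (rows, with the number of genes), each gene a grey point, the TMM median a filled diamond and the median on the Sertoli scale an open diamond. Germ cell lists lie left of 0 on both scales from early meiosis on, and the 8 lists from Sertoli to endothelial lie right of 0 under TMM with Sertoli-scale medians between -1.24 and 0.46.

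Markers of other tissues did not move 1 way. Of the kidney list 6 genes were tested, 2 were lower and 1 higher (-1.26 and -3.34), and their summed level was 22.3 to 23.9 CPM in KO against 20.5 to 23.4 in WT; the member called higher was Aqp2, a water channel, at 19.7, 18.9 and 17.4 CPM against 6.94, 9.39 and 8 (1.20, and -0.88 on the Sertoli scale), and just short of the call with DESeq2 (0.996). Liver genes, 3 of 11 lower and 3 higher (-1.73 and -3.80), summed to 16.4 to 17.9 CPM against 60 to 70.5, and Alb, albumin, read 0.385, 0 and 0.265 against 1.77, 0.446 and 0.353. Adrenal genes summed to 67.7 to 74.4 CPM against 18.8 to 20.7, with 3 of 4 higher and 1 lower (1.68 and -0.40). Skeletal muscle genes, 2 of 8 higher and 1 lower (0.37 and -1.71), summed to 84.1 to 87 CPM in KO against 18.5 to 19 in WT. Adipocyte genes went the other way, with a sum of 118 to 122 CPM against 860 to 871, although 5 of 11 were higher and 3 lower (0.95 and -1.12). Duct epithelium genes, 3 of 10 higher and 4 lower (0.26 and -1.82), summed to 33.6 to 36.8 CPM against 66.8 to 69.7, and mesothelium genes, 4 of 7 higher and 1 lower (1.42 and -0.66), to 28.8 to 29.4 against 12.3 to 13.9. Over all genes tested 37.1% were lower and 28.8% higher. The part of such cells in the results was not tested.

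Heat shock and chaperone genes were called in shares close to those of all genes. Of 45 genes 20 were lower (44.4%, against 37.1% of all genes tested), 12 were higher (26.7% against 28.8%) and 13 were neither. The median was -0.58 under TMM, -0.01 with library totals and -2.66 on the Sertoli scale. On that scale 33 were lower and 1 higher, against 68.0% and 1.50% of all genes tested. Among the lower genes, Hspa1l, a germ cell Hsp70, read 1.92, 1.12 and 1.69 CPM in KO against 771, 874 and 878 in WT (-9.07), Hspa2, the Hsp70 of spermatocytes, 61.2, 50.2 and 56.5 against 1420, 1542 and 1529 (-4.74), and Dnajb1 53.5, 53.4 and 54.5 against 414, 411 and 398 (-2.92). The Hsp90 genes parted, Hsp90aa1 falling to 587, 565 and 610 CPM from 2712, 2533 and 2558 (-2.15) and Hsp90ab1 reading 1007, 959 and 963 against 344, 348 and 355 (1.48, and -0.60 on the Sertoli scale). The stress-inducible genes were not uniformly higher either. Hspb1, a small heat shock protein, read 233, 239 and 220 CPM against 24.9, 29.1 and 28.4 (3.07 and 0.98) and Hspb8 25.4 ± 1.61 against 1.53 ± 0.16 (4.05 and 1.97). Hspa1a, at 14.6, 18.3 and 14 CPM against 6.43, 8.5 and 9.67 (0.93, not called, but 1.003 and called without KO replicate 3 and 1.09 without WT replicate 3), and Hspa1b, at 25.6, 21.8 and 23 against 3.63, 6.11 and 5.69 (2.19 and 0.11), are near-identical copies whose reads could be split between them, so their separate values are uncertain. The cold-inducible RNA-binding gene Cirbp was lower, 41.7, 41.7 and 40.6 CPM against 80.5, 92.9 and 84.3 (-1.06), or -0.49 with library totals and -0.98 without WT replicate 2, where it was not called, and its relative Rbm3 was not called (0.54 and -1.55), but reached 1.10 and the call with library totals.

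**Figure D4:**
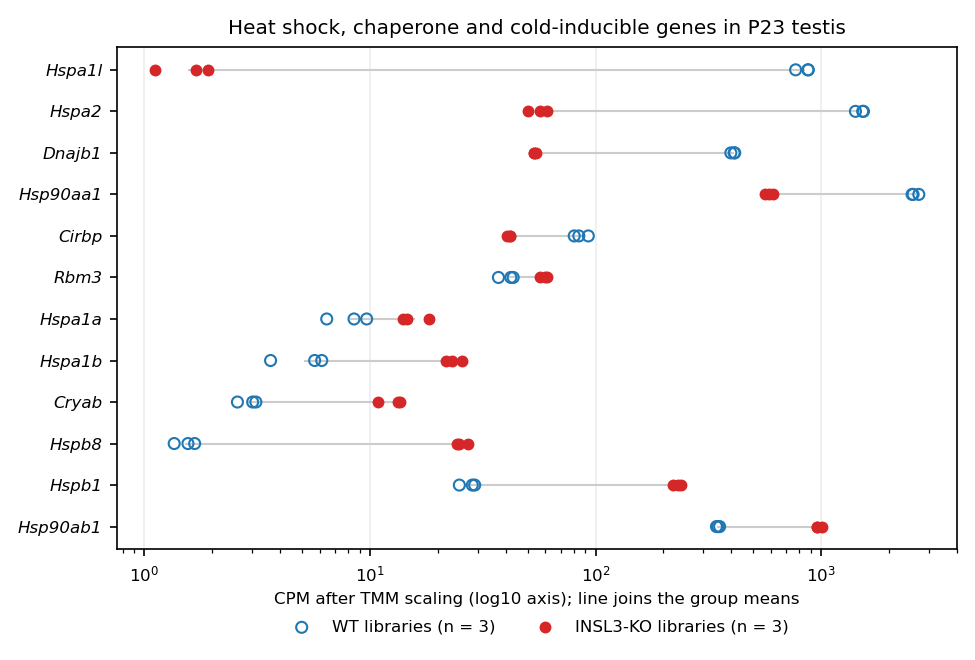
CPM of 12 heat shock, chaperone and cold-inducible genes in each of the 6 libraries on a log10 axis, with WT libraries as open circles and KO libraries as filled circles. Hspa1l, Hspa2, Dnajb1, Hsp90aa1 and Cirbp lie lower in KO, and Hspb1, Hspb8, Hspa1b, Cryab and Hsp90ab1 lie higher.

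The list taken from the study's heat map of heat stress and meiosis genes held 15 genes, of which 10 were lower and 5 higher. The study cites that heat map for INSL3-KI testes at P40, and its text does not tie it to the P23 samples. It comes from the same series, so the list is not independent evidence of its direction. The 5 were Hspb1, Hspa1b, Cryab, Hsp90ab1 and Dmrt1, of which Hsp90ab1 and Dmrt1 (1.95 under TMM, -0.14) lay below 0 on the Sertoli scale. The other 10 were Hsp90aa1, Dnajb1, Hspa2, Rec8, Rnf212, Cpeb3, M1ap, Cpeb2, Cdc20b and Meig1, from -1.12 for Rec8 to -5.89 for Meig1.

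Stress and death genes were split. Of 41 genes of apoptosis and the p53 response 27 were higher and 7 lower (median 1.52, Sertoli scale -0.56). On the Sertoli scale 1 was higher and 15 lower, against 1.50% and 68.0% of all genes tested. Trp53 read 108, 107 and 103 CPM in KO against 29.1, 28.8 and 29.2 in WT (1.87 and -0.22), and Bbc3, a death effector that p53 induces, 10.3, 9.48 and 9.29 against 1.26, 0.987 and 1.29 (3.03 and 0.95). Mdm2, the ligase that degrades p53, was lower, at 60, 60.5 and 67.8 against 240, 226 and 235 (-1.90). Bcl2l14 read 0, 0 and 0.0407 against 522, 521 and 529 (-14.91). It was under the floor of 3 counts in each KO library, so the size of its fall is not fixed by the reads. Of 40 oxidative defence genes 23 were higher and 6 lower (1.56 and -0.53). Gpx4, the peroxidase that sperm use for both defence and structure, read 132 in each KO library against 1216, 1369 and 1364 CPM (-3.31), while Gpx3 read 89 ± 2.08 against 13.1 ± 0.84 (2.77 and 0.68). Among 22 genes of the unfolded protein response 9 were higher (40.9%, against 28.8% of all genes tested) and 3 lower (13.6% against 37.1%). Their median was 0.28, and -1.81 on the Sertoli scale. Ddit3, the death factor of this response, was lower (22.4 ± 1.52 against 64.7 ± 8.17, -1.53, or -0.97 and not called with library totals). Atf3, a stress-induced factor, read 7.08, 6.35 and 5.93 CPM against 0.284, 0.127 and 0.129 (5.14 and 3.07).

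Complement and coagulation genes were higher in 28 of 39 cases and lower in 5, with a median of 2.18 and 0.09 on the Sertoli scale. On that scale 6 were higher and 11 lower, against 1.50% and 68.0% of all genes tested. C3, the central complement protein, read 253, 247 and 250 CPM in KO against 20.2, 20.9 and 18.3 in WT (3.66 and 1.57), and Serping1, the C1 inhibitor, 597, 578 and 565 against 52.3, 53.4 and 53.1 (3.45 and 1.37). Cd55, which protects cells from complement, was lower, at 8.37, 7.11 and 8.63 against 73, 64.9 and 65.4 (-3.08). Cytokine, chemokine and TNF genes were higher in 36 of 54 and lower in 4 (1.90 and -0.18). Tnfrsf12a, the receptor for TWEAK, read 31, 31.8 and 30.3 CPM against 1.14, 0.382 and 1.45 (4.97 and 2.89), and Ccl9, a macrophage chemokine, 12.7, 17.2 and 11.8 against 0.568, 0.414 and 0.643 (4.68 and 2.60). Il1b, a main inflammatory cytokine, overlapped between groups with 0.448 ± 0.212 against 0.957 ± 0.397 CPM. TGF-beta and BMP genes were higher in 27 of 40 and lower in 5 (1.84 and -0.24), and Id3, a target of BMP signals, read 52.8, 64.1 and 49.5 against 3.34, 4.27 and 3.28 (3.93 and 1.85).

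Of 23 retinoic acid genes 10 were higher (43.5%, against 28.8% of all genes tested) and 6 lower (26.1% against 37.1%). Their median was 0.96 under TMM and -1.13 on the Sertoli scale. Aldh1a1, which makes retinoic acid in Sertoli and Leydig cells, read 2500, 2574 and 2480 CPM against 349, 323 and 322 (2.93 and 0.84), and Aldh1a2, which makes it in spermatocytes, 48.1, 46.4 and 48.6 against 156, 159 and 167 (-1.75). Among 47 cell cycle regulators 19 were lower (40.4%, against 37.1% of all genes tested) and 11 higher (23.4% against 28.8%), with a median of -0.18, 0.38 with library totals and -2.26 on the Sertoli scale. Ccnb2, a mitotic and meiotic cyclin, read 12.2, 14.2 and 12.2 CPM against 229, 226 and 219 (-4.12), and Ccnd2, the cyclin of spermatogonia and other dividing cells, 47.5, 47 and 50.3 against 7.92, 9.2 and 7.58 (2.55 and 0.47). Mki67, a marker of dividing cells, read 29.6, 24.3 and 26.4 against 42.7, 35.9 and 35.6 (-0.51, not called).

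The sex chromosomes and the mitochondrial genome stood apart from the autosomes. On the X, 459 of 998 genes were higher (46.0%) and 292 lower (29.3%), against 23.5 to 33.2% higher and 31.3 to 49.8% lower over the autosomes, and X genes took 3.61 to 3.65% of the KO counts against 1.29 to 1.34% of the WT counts. The median on the X was 0.97 under TMM and -1.11 on the Sertoli scale. On the Y, 195 of 225 genes were lower (86.7%) with a median of -5.97; many belong to multicopy families whose reads the authors' counting could split. Of the 13 mitochondrial protein genes each was higher under TMM, with a median of 1.68 that became -0.40 on the Sertoli scale, and the mitochondrial genome took 12.2 to 13.3% of the KO counts against 2.38 to 2.53% of the WT counts. Among gene classes, 592 of 845 lincRNAs (70.1%) and 565 of 802 antisense genes (70.4%) were lower against 32.7% of protein-coding genes; strand-specific counting is not stated, so reads of an antisense gene and its partner cannot be told apart.

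Among genes at 10 CPM or more in WT whose symbol is no clone or predicted-gene name, the 10 with the deepest falls had no read in KO. They were Acsbg2, Csnka2ip, Tex35, Spatc1, Tmco2, Fam71e2, Cylc2, Tmem247, Ccdc185 and Catsper1. Acsbg2, a fatty acid activating enzyme of the testis, read 309, 308 and 301 CPM in WT, so it was at least 4887-fold lower. Among genes at 10 CPM or more in KO with such a symbol and no overlap between the groups, the 10 with the highest fold changes were Lingo2, Ugt3a2, Rps12l1, Tnfrsf12a, Rab7b, Robo4, Spp1, Aqp5, Ccl9 and Ildr2, and apart from Rps12l1 each was between 4.44 and 6.63 under TMM and above 2 on the Sertoli scale. Ugt3a2, a glycosyltransferase, read 55.7, 59 and 60.4 CPM in KO against 1.55, 0.828 and 2.02 in WT (5.31 and 3.23). Robo4, a guidance receptor of vessels, read 53.4, 53.9 and 52.8 against 2.3, 2.13 and 1.7 (4.70 and 2.62), and Spp1, osteopontin, 41, 38.9 and 42.5 against 1.64, 1.31 and 1.77 (4.70 and 2.61). Rps12l1, a processed pseudogene of a ribosomal protein, read 30, 6.36 and 0.692 CPM in KO, so its highest KO library was 43.4-fold above its lowest. Its log2 fold change was 5.21 (SE 1.31, edgeR adjusted p = 0.0044), 3.43 without KO replicate 1, and it was no longer called without WT replicate 1, 2 or 3 (edgeR adjusted p = 0.017, 0.026 and 0.031).

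Set beside the libraries labelled P8 INSL3-KO, many genes called in P23 KO, lower or higher, lay within 2-fold of their level there. Of the 7671 genes lower in P23 KO than in P23 WT, 5988 lay within 2-fold of the libraries labelled P8 INSL3-KO in P23 KO, 672 lay above them and 1011 below, while P23 WT lay more than 2-fold above them for 6918. Of the 7671, 4121 were under 1 CPM in the libraries labelled P8 INSL3-KO, where the pseudocount pulls a ratio towards 1. Of the 3550 at 1 CPM or more there, P23 KO lay within 2-fold for 2685, above for 130 and below for 735. Of the 5948 genes higher in P23 KO, 4145 lay within 2-fold of the same libraries in P23 KO, 1437 above and 366 below. P23 WT lay more than 2-fold below them for 4261. Closeness to that level was thus not particular to the lower genes, and its share over all genes tested was not counted. On the scale shared by the 9 libraries, the median log2 ratio to P8 was -0.11 in P23 KO and 5.06 in P23 WT for pachytene genes, 0.21 and 9.31 for round spermatid genes and 1.02 and 12.02 for elongating spermatid genes. The early meiotic list was below P8 in KO, with medians of -2.05 in P23 KO and 0.84 in P23 WT. Sycp1 read 198 ± 3.02 CPM in the libraries labelled P8 INSL3-KO, 52.4 ± 1.81 in P23 KO and 353 ± 28.8 in P23 WT, and Stra8 read 168 ± 4.03, 38.6 ± 1.64 and 22.1 ± 0.281 in the same order.

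Somatic lists differed in their ratios to the libraries labelled P8 INSL3-KO. Leydig genes had a median log2 ratio to P8 of 1.18 in P23 KO and -0.03 in P23 WT. Hsd3b6 read 2.72 ± 0.35 CPM in the libraries labelled P8 INSL3-KO, 346 ± 6.16 in P23 KO and 90.3 ± 3.7 in P23 WT. Macrophage genes stood at 2.52 in P23 KO and 0.22 in P23 WT, and Folr2, a marker of resident macrophages, read 4.36 ± 0.162 CPM at P8, 53 ± 3.19 in P23 KO and 5.11 ± 0.49 in P23 WT. Sertoli genes stood at 0.46 and -1.78, and Amh read 138 ± 1.09 CPM in the libraries labelled P8 INSL3-KO, 50.8 ± 2.34 in P23 KO and 3.87 ± 0.633 in P23 WT. Fibroblast and matrix genes were below P8 in both, at -0.86 and -2.90, with Col1a1 at 1046 ± 46.1 CPM at P8 and log2 ratios to P8 of -2.39 in P23 KO and -4.03 in P23 WT. The P8 libraries go against their label for Insl3, so these ratios were not tested. The ratios of P23 WT also differ in both age and genotype label, which cannot be told apart here.

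**Figure D5:**
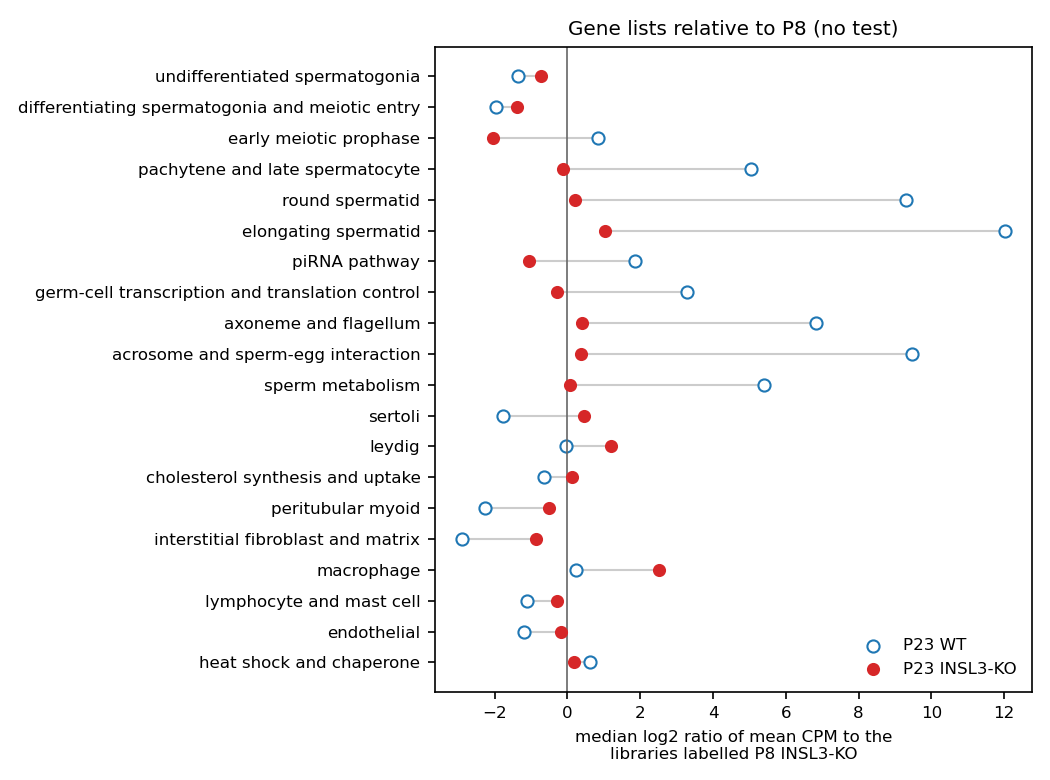
Median log2 ratio of P23 KO (filled circles) and P23 WT (open circles) to the libraries labelled P8 INSL3-KO (horizontal axis, vertical line at 0 meaning the same level as in those libraries) for 20 gene lists. P23 WT lies at 5.06, 9.31 and 12.02 for the pachytene, round and elongating spermatid lists, where P23 KO lies at -0.11, 0.21 and 1.02, and P23 KO lies right of P23 WT for the 8 lists from Sertoli to endothelial.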

How the data were processed

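Total RNA of whole testes was extracted, made into mRNA libraries and sequenced as paired-end reads on an Illumina NovaSeq instrument. The authors processed the reads on the BMKCloud platform and mapped them with HISAT2 to GRCm38, per the submitters' processing notes; the HISAT2 version, the counting program, the annotation and the strand setting are not given in the sources used here. The deposited table used held raw counts per gene, and the matching deposited table held FPKM computed by the authors, which served for an alternative only. The study called genes with DESeq2. Libraries of other groups, in tables processed separately, were not used here, apart from the libraries labelled P8 INSL3-KO of the same table.

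The members and lists were chosen with earlier results of these data known, so no list is independent evidence and no list was given a p-value. The 58374 entries held 15035 unannotated loci, 0.605 to 0.617% of the counts in KO and 1.95 to 2.01% in WT, which were left out of the fit. Of the other 43339 entries 42456 matched GENCODE M21, which gave positions. Counts were tested in R 4.3.3 with edgeR 4.0.16 (quasi-likelihood test, TMM scaling, no covariate), after filterByExpr at its minimum of 10 counts and minimum total of 15. P-values were adjusted by Benjamini-Hochberg across the 20657 genes kept, and calls needed an adjusted p below 0.01 with a change of 2-fold or more. Each SE was derived from the test, as the absolute log2 fold change divided by the square root of its F statistic. For genes with few KO reads it understates how far the fold change can move. TMM factors were 1.21 to 1.23 in KO and 0.82 in WT, so CPM are shares of the RNA, not amounts per testis. Genes at 3 counts or fewer in each KO library were given a bound computed at 3 counts per library. Ratios to the libraries labelled P8 INSL3-KO used a pseudocount of 0.1 CPM. The edgeR step was tested on simulated data in which few genes changed, evenly in both directions. That simulation does not test the scaling where most genes are called, as here. Bounds cover counting error only. Alternatives used DESeq2 1.42.0 and limma 3.58.1 (log2 of FPKM plus 1 or 0.1), and tables and figures Python 3.11.15, pandas 2.3.3 and matplotlib 3.10.9.

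Genes were named by a rule. It took marker genes starred in the lists, the called members of each list with the largest change or the highest CPM (up to 4 each), the study's heat map genes, and in each direction the 10 called genes with the largest change that reached 10 CPM in the higher group, did not overlap and had a symbol that is not a clone or predicted-gene name. Named outside it, after their values were seen, were Cd55, Cfap44, Cfap45, Ckb, Cul4a, Dnaaf2, Dnah11, Dnah9, Dnal1, Gopc, Gsk3a, Hspb8, Hspe1, Ift20, Ift57, Iqca, Jak3, Lrguk, Mei4, Piwil4, Rec114, Rfx3, Slc16a1, Spag16, Taf7l, Tekt4 and Ttc29. Promoter sequences came from RefSeq (GRCm38.p6), in which 13375 tested genes had a window. Each window runs past the start, and only the 250 bases before it were searched. In 92.9% of the windows the last 20 bases, which lie after the start, occurred in a transcript of the gene, a check of their orientation. Some genes are not reported here.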

Additional observations from a re-analysis of the deposited data

Results flagged for a closer look

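Loci without an Ensembl identifier, which took no part in the comparison of genes, also differed between the groups. When they were added to the fit under TMM scaling, 4806 were tested, 584 were higher in INSL3-KO and 3439 were lower. The files give these loci no gene name, and what they are was not tested.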

How the results depend on the processing

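Leaving out 1 library at a time gave 7505 to 7883 genes lower in KO and 5761 to 5898 higher, and 7212 lower and 5357 higher genes were called in each of these fits. The log2 fold change of Insl3 ranged from -17.76 to -13.70. The first was without KO replicate 2, where no KO read was left, so its size is not fixed by the reads. DESeq2 gave 8182 lower and 5166 higher genes, DESeq2 size factors in edgeR 8175 and 5175, library totals 6600 and 7986, no filter on low counts 8035 and 5963, and the libraries labelled P8 INSL3-KO in the fit 7655 and 6052. The authors' FPKM tested with limma gave 5147 and 5977 with a pseudocount of 1 and 7202 and 8109 with 0.1. A threshold of 4-fold left 2769 higher genes, by its construction. The same replicate numbers did not pair the samples (correlations of deviations 0.003, -0.049 and -0.100), and the fit with the replicate number as a block gave 7360 lower and 5482 higher genes, of which 7351 and 5466 were also called without the block, an Insl3 value of -14.27, and the same call for each of the other 160 named genes.

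Scaling moved the results most. It shifted the median log2 fold change by 0.57 with library totals, -0.21 with DESeq2 size factors and -2.08 with the summed Sertoli counts, where 14039 genes were lower and 310 higher. Chosen after seeing the data, scaling on the median ratio of the Sertoli genes gave 14898 and 199, and including unannotated loci 10949 and 6792. On the summed Sertoli scale 21 named genes went from above to below 0, namely Cyp11a1 (-1.05), Kit (-1.07), Stra8 (-1.29), Mei4 (-0.94), Rec114 (-1.18), Taf7l (-1.79), Ift20 (-1.87), Slc16a1 (-0.50), Ckb (-0.18), Wt1 (-0.025), Eppin (-0.58), Hsd3b6 (-0.16), Cyp17a1 (-1.48), Hmgcs1 (-0.57), Col1a1 (-0.46), Aqp2 (-0.88), Hsp90ab1 (-0.60), Hspa1a (-1.15), Rbm3 (-1.55), Dmrt1 (-0.14) and Trp53 (-0.22). List medians did so for undifferentiated (-0.39) and differentiating spermatogonia (-1.88), Leydig cells (-0.35), cholesterol (-0.60), myoid cells (-0.27), fibroblasts (-0.073), lymphocytes (-1.23), endothelium (-1.24), erythroid cells (-1.53), adrenal (-0.40), skeletal muscle (-1.71), adipocytes (-1.12), duct epithelium (-1.82), mesothelium (-0.66), cold-inducible genes (-1.74), unfolded protein response (-1.81), oxidative defence (-0.53), apoptosis (-0.56), cytokines (-0.18), TGF-beta (-0.24), barrier junctions (-0.89), hormone receptors (-0.076), androgen-responsive genes (-0.079) and retinoic acid (-1.13).

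With DESeq2 size factors the median of differentiating spermatogonia was -0.0030. From below to above 0 went, with library totals, Cul4a (0.41), Gsk3a (0.0069), Dnal1 (0.065), Mki67 (0.056) and the cell cycle median (0.38), and with limma on FPKM plus 0.1 and plus 1 Cul4a (0.44 and 0.43), Gopc (0.014 and 0.013), Gsk3a (0.030 and 0.029), Dnah9 (0.055 and 0.014) and Mki67 (0.078 and 0.060). Of the other named genes, 3 lost their call with DESeq2 and 7 with library totals, where 6 gained one, Stra8 (1.36), Mei4 (1.71), Rec114 (1.46), Cyp17a1 (1.17), Hspa1a (1.50) and Rbm3 (1.10). The cause of these differences was not tested. Depth limits the genes at or under 3 counts in KO, whose falls are bounds.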
